A study of Mus musculus with 6 samples.

Results

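Transcripts of the ErbB receptor tyrosine kinases and their EGF-like ligands were followed in sorted luminal progenitor cells of the mouse mammary gland. The group held 10 genes, chosen by symbol among the 18537 known-gene clusters of the deposited values (18207 distinct symbols). These were the 4 receptors *Egfr*, *Erbb2*, *Erbb3* and *Erbb4* and the 6 ligands *Areg*, *Ereg*, *Btc*, *Hbegf*, *Tgfa* and *Nrg1*, and each symbol matched 1 cluster. The cells were sorted by FACS as Lin-CD24loCD29+CD61+ from adult nulliparous females, either *Robo1+/+* or *Robo1-/-*. Both genotypes were littermates from crosses of *Robo1+/-* mice, and the *Robo1-/-* animals carried their targeted allele of *Robo1*, a guidance receptor gene, in the whole body and not in the mammary epithelium alone. Poly(A)+ RNA was sequenced in 3 libraries per genotype, each pooled from 2 animals, so that every library is 1 replicate and animals within a library cannot be compared. The libraries are named gh03, gh09 and gh15 (*Robo1+/+*) and gh06, gh12 and gh18 (*Robo1-/-*).

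ErbB receptors are activated when an EGF-like ligand, cut from a membrane-bound precursor, brings receptors together in pairs that phosphorylate each other. ErbB2 has no known ligand of its own and ErbB3 has a weak kinase, so both signal chiefly as partners of another family member, whereas EGFR and ErbB4 bind ligand and are active kinases. In the mammary gland amphiregulin, the product of *Areg*, acts downstream of estrogen in ductal growth through EGFR, and ErbB4 acts in alveolar differentiation.

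The 6 libraries held 9727191 to 17433868 reads assigned to clusters, and 1 read was worth 0.784 to 1.46 units of the normalized count. A cluster with fewer than 3 reads, or 2.35 to 4.38 units depending on the library, was taken as not detected, which covers counting error only. *Robo1* itself was at 289, 574 and 541 in *Robo1+/+* and at 130, 214 and 177 in *Robo1-/-*, with no overlap. Luminal progenitor markers were present in every library, with *Kit* at 4209 to 5644 and *Elf5* at 2366 to 3901. Others of the 7 listed were less even, with *Itgb3* at 387 to 1317, *Aldh1a3* at 1972 to 6865 and *Ltf* at 5244 to 25283. *Csn3* was at 7755 to 9771 in *Robo1+/+* and 11375.5 to 19142.5 in *Robo1-/-*, without overlap. After GC correction its genotypes overlapped. The summed hormone-sensing luminal markers were not low, at 34545 to 48101 in *Robo1+/+* and 48901 to 58696 in *Robo1-/-*. How many such cells the sort held was not measured. Among endothelial and leukocyte markers, only *Pecam1* and *Cd68* were detected in every library. Of 4 endothelial markers *Pecam1* was at 23.4 to 89.8. *Cdh5*, *Kdr* and *Tek* were at 0 in at least 1 library and had at most 1, 3 and 6 reads. Of 4 leukocyte markers measured *Cd68* was at 65.7 to 134. *Ptprc*, *Adgre1* and *Cd79a* were at 0 in at least 1 library and had at most 1, 2 and 3 reads. Library gh18 stood apart from the others by base composition. Each library's log2 deviation from the mean of the other 5 was set against transcript GC content across the 12538 tested genes with a GC value. The rank correlation was -0.81 in gh18, against 0.17 to 0.60 in the other 5 libraries. For those 5 the mean includes gh18, so their positive values cannot be read as a bias of their own. Genotype comparisons of the 10 genes are therefore also given without gh18 and after a GC correction of every library.

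Levels of different genes were compared as normalized count per kb of the longest annotated transcript. Among the receptors *Erbb3* was highest per kb, with a median over the 6 libraries of 735 (range 414 to 762). *Erbb2* followed at 392 per kb (85.6 to 490), *Egfr* at 55.9 per kb (37.0 to 89.9) and *Erbb4* at 8.07 per kb (5.86 to 13.8). The 2 receptors that depend on partners thus held the top of the order. *Erbb3* exceeded *Erbb2* per kb in 6 of 6 libraries, by a median ratio of 1.79 (1.53 to 4.83), although their ranges overlapped. *Erbb2* exceeded *Egfr* per kb in 5 of 6 libraries, and in gh18 the ratio was 0.952. *Egfr* exceeded *Erbb4* per kb in all 6, by 5.17 to 9.29 times. On NCBI37, *Egfr* (kgCluster2990) spans chr11:16652206-16818161, *Erbb2* (kgCluster4171) spans chr11:98273784-98299030, *Erbb3* (kgCluster2776) lies on the minus strand at chr10:128004579-128026708 and *Erbb4* (kgCluster404) on the minus strand at chr1:68078760-69154633. Each cluster has 1 count per library, so exonic, intronic and UTR positions of the reads were not resolved. Whether reads in introns were counted is not given in the sources used here, while levels per kb divide by transcript length.

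*Areg* was the most abundant ligand, measuring 12145, 11195 and 13725 normalized counts in *Robo1+/+* and 15050, 13086 and 14914 in *Robo1-/-*. Its mean count placed it at percentile 99.5 of all clusters. Per kb its median was 11180 (9337 to 12552). It lies on NCBI37 at chr5:91568641-91577458 (kgCluster19142), on the same chromosome as *Ereg* (kgCluster19141, chr5:91503643-91522675) and, on the minus strand, *Btc* (kgCluster19144, chr5:91786287-91831939). The 250 bases before the start of *Areg* are shown beside those before *Btc*, a nearby ligand gene whose median level per kb was 170. Both are from RefSeq on GRCm38.p6, at chr5:91139349-91139598 (plus strand) for *Areg* and chr5:91402995-91403244 (minus strand) for *Btc*, and capitals mark 3 motifs searched on both strands.
Areg: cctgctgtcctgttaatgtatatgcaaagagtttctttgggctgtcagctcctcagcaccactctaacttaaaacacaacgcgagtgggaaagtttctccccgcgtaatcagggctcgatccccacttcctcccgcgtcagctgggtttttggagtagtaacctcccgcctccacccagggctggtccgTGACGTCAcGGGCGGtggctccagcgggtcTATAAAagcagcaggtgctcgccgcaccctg
Btc: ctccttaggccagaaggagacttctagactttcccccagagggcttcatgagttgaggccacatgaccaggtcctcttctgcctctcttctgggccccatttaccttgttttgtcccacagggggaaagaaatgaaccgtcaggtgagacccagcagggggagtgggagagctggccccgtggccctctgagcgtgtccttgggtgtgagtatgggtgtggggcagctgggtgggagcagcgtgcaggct
The *Areg* window held TGACGTCA, the cAMP response element, starting 61 bases before the gene's start. It also held GGGCGG, the GC box, from 52 bases before the start, and TATAAA, the TATA box, from 31 bases before it, none overlapping another. Among all 32851 RefSeq promoter windows of the same length, TGACGTCA was found in 1.55%, TATAAA in 12.4% and GGGCGG in 32.7%. None of the 3 was found in the *Btc* window, whose GC content was 59.6% against 57.2% for *Areg*. Of the other windows searched, *Egfr* held 1 GC box and *Tgfa* 2, and *Erbb2* and *Erbb4* held none of the 3 motifs. These matches describe letters only and were not related to binding of any factor.

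The remaining ligands formed a steep order below *Areg*. *Hbegf*, heparin-binding EGF, had a median of 1275 per kb (787 to 1853), and *Areg* exceeded it per kb in 6 of 6 libraries by 6.71 to 12.9 times. *Btc*, betacellulin, was at 170 per kb (117 to 328) and *Tgfa*, transforming growth factor alpha, at 151 per kb (109 to 216). These neighbours did not separate. *Btc* exceeded *Tgfa* per kb in 4 of 6 libraries, and with coding length in place of transcript length in 1 of 6. *Ereg*, epiregulin, was at 20.4 per kb (10.6 to 33.1), below *Tgfa* in every library. *Nrg1*, which encodes the ErbB3 and ErbB4 ligand neuregulin 1, was lowest at 7.15 per kb (2.23 to 8.47), although its annotated transcript holds coding sequence only. It rested on 6 to 19 reads per library. The summed basal and myoepithelial markers, of which all 8 were in the values, ranged from 654 to 2074 in *Robo1+/+* and 802 to 1460 in *Robo1-/-*, and their part in the *Nrg1* level was not tested. On NCBI37, *Hbegf* (kgCluster11677) is on the minus strand at chr18:36664583-36675459, *Tgfa* (kgCluster20960) at chr6:86145420-86225151 and *Nrg1* (kgCluster24722) on the minus strand at chr8:32928500-33119581.

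**Figure D1:**
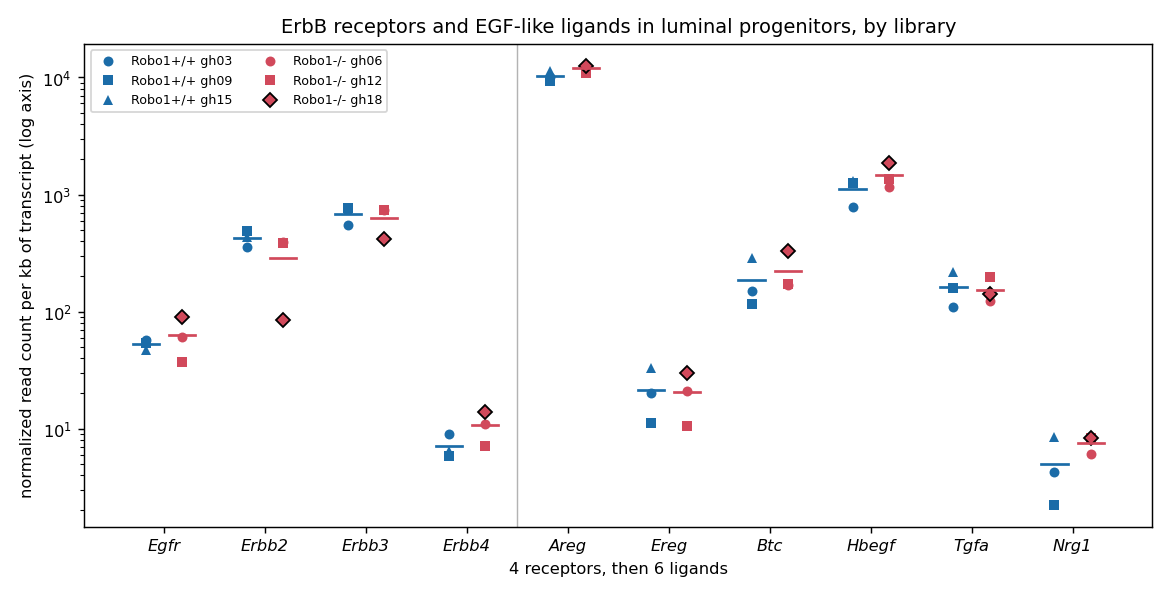
Level of each receptor and ligand in the 6 libraries, as normalized count per kb of transcript on a log axis, with 1 point per library and a bar at each genotype's mean. *Areg* sits at 9337 to 12552 per kb in every library and *Erbb4* and *Nrg1* below 14 per kb.

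Set against each other within a library, the ligands were mostly *Areg*. Its share of the summed count per kb of the 6 ligands was 90.4%, 85.8% and 86.1% in *Robo1+/+* and 89.5%, 86.2% and 84.1% in *Robo1-/-*. *Hbegf* held 7.02% to 12.5%, and each other ligand at most 2.22%. The sum over ligands was 8.29 to 11.7 times the sum over receptors per kb in 5 libraries and 24.5 times in gh18.

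Among the receptors, the share of the summed count per kb taken by *Erbb2* was 36.8%, 37.3% and 35.3% in *Robo1+/+* and 32.9%, 33.1% and 14.2% in *Robo1-/-*. All 3 *Robo1-/-* libraries lay below the *Robo1+/+* libraries, with gh18 far below the other two. *Erbb3* took 56.4%, 58.1% and 60.3% in *Robo1+/+* and 61.1%, 63.1% and 68.6% in *Robo1-/-*, again without overlap but in the opposite direction. The means were 36.5% ± 1.08 against 26.7% ± 10.9 for *Erbb2* and 58.3% ± 1.99 against 64.3% ± 3.86 for *Erbb3* (SD, n = 3). The 2-sided exact permutation p was 0.10 for each, the smallest that 3 against 3 libraries allow, and 0.50 after Benjamini-Hochberg adjustment over the 10 shares. These were the 2 of 10 shares whose genotypes did not overlap. Shares of the 4 receptors add up to the whole in each library, and *Erbb2* and *Erbb3* held most of it. Their differences are therefore not independent results. Leaving out gh18 could not make separated genotypes overlap. Without gh18 the difference between genotype means went from -9.75 to -3.48 percentage points for *Erbb2* and from 6.03 to 3.88 for *Erbb3*. The *Erbb3* shares overlapped when coding length or plain reads were used, with differences of 3.31 and 3.35 percentage points. After GC correction the *Erbb2* shares were 33.3%, 32.1% and 30.4% against 27.8%, 31.6% and 29.7%, and no share separated the genotypes.

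**Figure D2:**
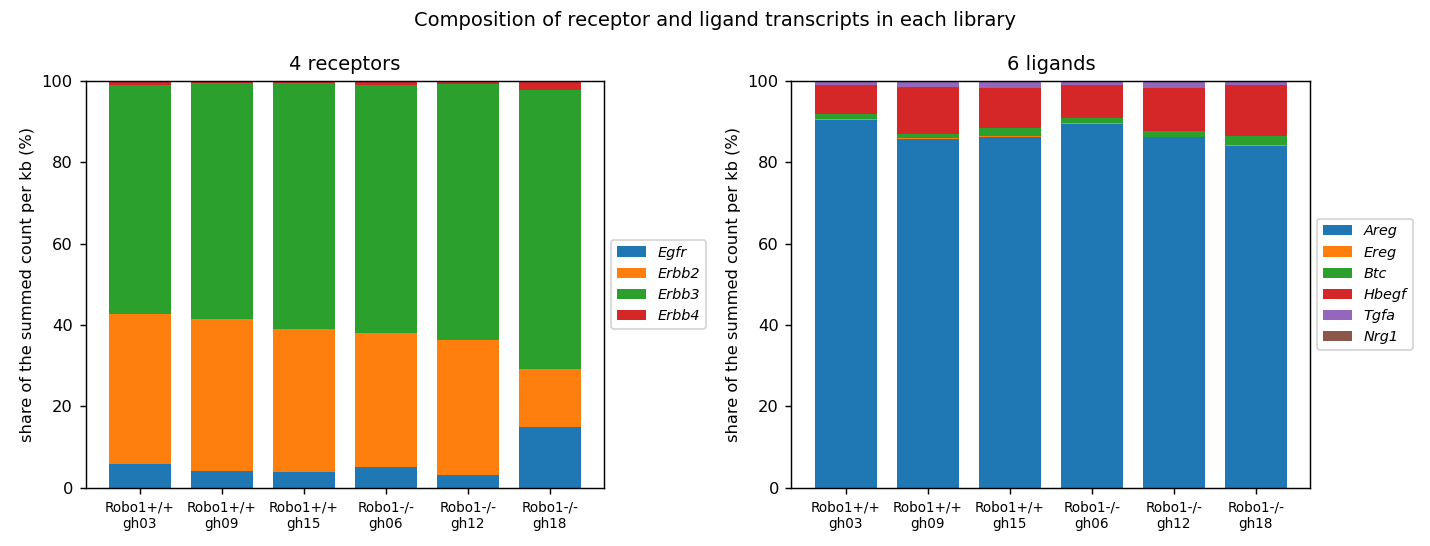
Stacked bars give each receptor's share (left) and each ligand's share (right) of the summed normalized count per kb in percent, with 1 bar per library. *Erbb3* and *Areg* take the largest share in every library, and the *Erbb2* share drops to 14.2% in gh18.

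The distance of each receptor and ligand in gh18 from the other libraries was set beside its base composition. In that library *Erbb2*, with a transcript GC content of 57.3%, lay 2.26 below the mean of the other 5 libraries on the log2 scale, with 294 reads against 1415 to 3134. *Btc*, at 40.1% GC, lay 0.94 above them and *Erbb4*, at 40.6%, lay 0.84 above. *Areg*, at 48.2% GC, lay 0.20 above. *Nrg1*, at 53.2% GC and on 12 reads, lay 0.60 above although most genes of that GC content lay below. Over the 10 genes Spearman's rho between the deviation in gh18 and GC content was -0.82, a description of genes that share 1 library. *Erbb2* spanned 5.73-fold over the 6 libraries and 1.36-fold over the 5 without gh18.

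**Figure D3:**
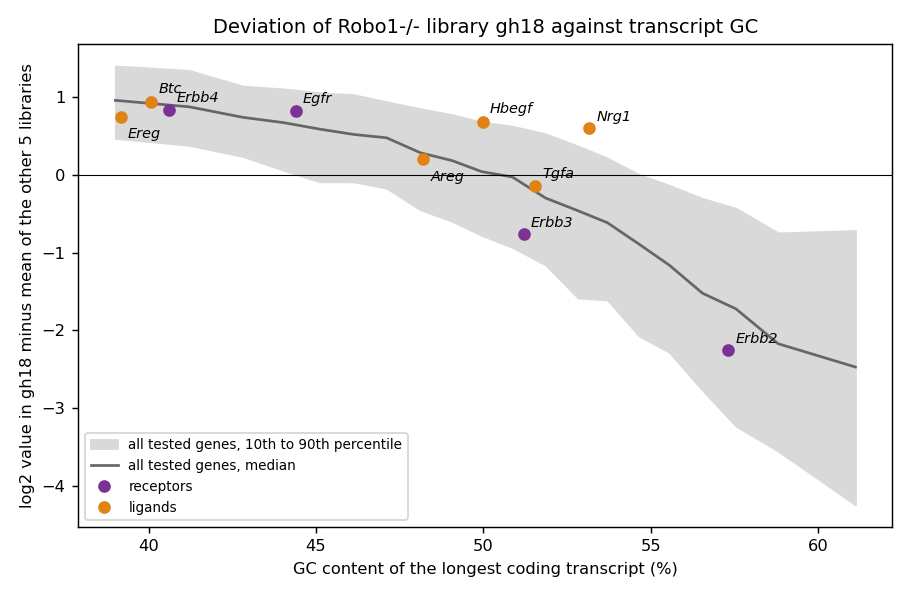
Log2 value of each receptor and ligand in gh18 minus its mean in the other 5 libraries, plotted against the GC content of its transcript in percent, with the median and the 10th to 90th percentiles of all tested genes as a line and band. *Erbb2*, at 57.3% GC, lies lowest at -2.26 and *Btc*, at 40.1%, highest at 0.94.

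The genotypes were then compared gene by gene, to ask whether luminal progenitors without Robo1 carried more or less receptor or ligand RNA. In bulk RNA, fewer cells that make a transcript and less of it per cell cannot be told apart. None of the 10 genes passed limma's test at an adjusted p of 0.05, nor did any of the 13692 genes tested (0 of 13692, 0%). At an unadjusted p of 0.05, 0 of the 10 passed, against 231 of 13692 genes (1.69%). On the recovered reads, edgeR and limma-voom called 0 genes and DESeq2 called 1 at an adjusted p of 0.05. The genotypes overlapped for all 10, where 9.41% of the tested genes (1288) did not. After GC correction the corresponding backgrounds were 1.57% (197 of 12538) and 6.57% (824 of 12538), and the 10 genes again gave 0 on both counts. Of the 10, 6 were higher and 4 lower in *Robo1-/-*, with a median log2 fold change of 0.18 against 0.00 over all tested genes, and -0.01 after GC correction.

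*Erbb2* measured 1800, 2456 and 2158 normalized counts in *Robo1+/+* and 1977, 1950 and 429 in *Robo1-/-*. Its *Robo1-/-* libraries gh06 and gh12 lay within the *Robo1+/+* range and gh18 far below it. The log2 fold change was -0.84 (SE 0.59, 95% confidence interval -2.23 to 0.55, limma adjusted p = 0.86). Without gh18 it was -0.11 (-0.51 to 0.29), and after GC correction -0.24 (-0.71 to 0.22). *Erbb3*, its preferred partner, had 3305, 4587 and 4431 in *Robo1+/+* and 4414, 4462 and 2488 in *Robo1-/-*. Of its *Robo1-/-* libraries only gh18 lay outside the *Robo1+/+* range, and gh09 of *Robo1+/+* was highest. The log2 fold change of *Erbb3* was -0.15 (SE 0.29, -0.84 to 0.54, limma adjusted p = 0.89), 0.13 (-0.31 to 0.56) without gh18 and -0.10 (-0.64 to 0.43) after GC correction.

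*Egfr*, the receptor for *Areg*, measured 585, 556 and 483 normalized counts in *Robo1+/+* and 621, 377 and 918 in *Robo1-/-*. The *Robo1-/-* libraries lay on both sides of the *Robo1+/+* range, with means of 541 ± 52.6 and 639 ± 271 (SD, n = 3). Its log2 fold change was 0.15 (SE 0.35, -0.67 to 0.97, limma adjusted p = 0.90), -0.08 (-0.68 to 0.51) after GC correction and -0.16 (-0.73 to 0.42) without gh18. *Erbb4* had 108, 70.5 and 76.9 in *Robo1+/+* and 132, 86.1 and 166 in *Robo1-/-*, where gh06 and gh18 exceeded every *Robo1+/+* library. The log2 fold change was 0.56 (SE 0.36, -0.30 to 1.42, limma adjusted p = 0.86). It was 0.23 (-0.49 to 0.95) after GC correction and 0.35 (-0.40 to 1.10) without gh18.

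Among the ligands, the *Areg* counts given above had means of 12355 ± 1278 in *Robo1+/+* and 14350 ± 1097 in *Robo1-/-* (SD, n = 3). Of the *Robo1-/-* libraries gh12 lay below gh15 of *Robo1+/+*, so the genotypes overlapped. The log2 fold change was 0.22 (SE 0.19, -0.24 to 0.67, limma adjusted p = 0.86), the narrowest interval of the 10 genes with all libraries. After GC correction it was 0.11 (-0.29 to 0.50), and without gh18 it was 0.19 (-0.23 to 0.60), where *Erbb2* had the narrower interval. The summed markers of hormone-sensing luminal cells, in which *Areg* is a known estrogen target, were 34545 to 48101 in *Robo1+/+* and 48901 to 58696 in *Robo1-/-*, without overlap. *Prlr*, the prolactin receptor gene, held more of this sum than the other 7 markers together. Without it, a choice made after seeing the values, the sums came to 13379, 17076 and 16554 in *Robo1+/+* and 21978, 22033 and 12801 in *Robo1-/-*, where gh18 was lowest and the genotypes overlapped. *Pgr*, the progesterone receptor gene, was at 1721, 3003 and 3394 in *Robo1+/+* and 5481, 4124 and 3752 in *Robo1-/-*. It was the only 1 of the 8 markers without overlap. All 8 of these markers were measured, and 6 were higher in *Robo1-/-*. The 2 lower ones were *Cited1* and *Tnfsf11*, with log2 fold changes of -1.01 (SE 0.94) and -2.94 (SE 1.99). *Cited1* lay at 286 in gh18 and at 2702 to 3954 in every other library, and without gh18 its log2 fold change was 0.20. *Tnfsf11* ranged from 0.92 in gh12, on 1 read, to 1660 in gh03, and without gh18 its log2 fold change was -4.58. The part of these markers in the *Areg* values was not tested.

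*Hbegf* measured 1866, 2968 and 3083 normalized counts in *Robo1+/+* and 2751, 3218 and 4396 in *Robo1-/-*. The genotypes overlapped, since gh06 fell below 2 of the *Robo1+/+* libraries. Its log2 fold change was 0.40 (SE 0.29, -0.28 to 1.07, limma adjusted p = 0.86), 0.21 (-0.38 to 0.80) without gh18 and 0.37 (-0.21 to 0.96) after GC correction. *Btc* had 422, 326 and 805 in *Robo1+/+* and 472, 480 and 916 in *Robo1-/-*. In each genotype a single library, gh15 or gh18, lay well above its companions. The log2 fold change of *Btc* was 0.30 (SE 0.42, -0.70 to 1.30, limma adjusted p = 0.86), -0.04 (-0.78 to 0.70) after GC correction and -0.01 (-0.89 to 0.87) without gh18.

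*Tgfa* measured 410, 601 and 814 normalized counts in *Robo1+/+* and 463, 741 and 533 in *Robo1-/-*, so that all *Robo1-/-* libraries lay inside the *Robo1+/+* range. *Ereg* had 82.7, 46.2 and 137 in *Robo1+/+* and 86.3, 44.0 and 123 in *Robo1-/-*, with nearly the same spread in both genotypes. For *Tgfa* the log2 fold change was -0.04 (-0.82 to 0.73), 0.03 (-0.65 to 0.70) after GC correction and 0.00 (-0.80 to 0.80) without gh18. For *Ereg* it was -0.06 (-1.34 to 1.23), -0.42 (-1.51 to 0.68) after GC correction and -0.38 (-1.62 to 0.85) without gh18, larger in size in both but with intervals that span 0. *Nrg1* had 8.91, 4.70 and 17.8 in *Robo1+/+* and 12.7, 17.4 and 17.5 in *Robo1-/-*. Its *Robo1-/-* libraries lay in the upper part of the *Robo1+/+* range, on counts too low to show a difference smaller than its interval. The log2 fold change of *Nrg1* was 0.71 (SE 0.54, -0.56 to 1.98, limma adjusted p = 0.86), 0.90 (-0.42 to 2.23) after GC correction and 0.64 (-0.82 to 2.09) without gh18.

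**Figure D4:**
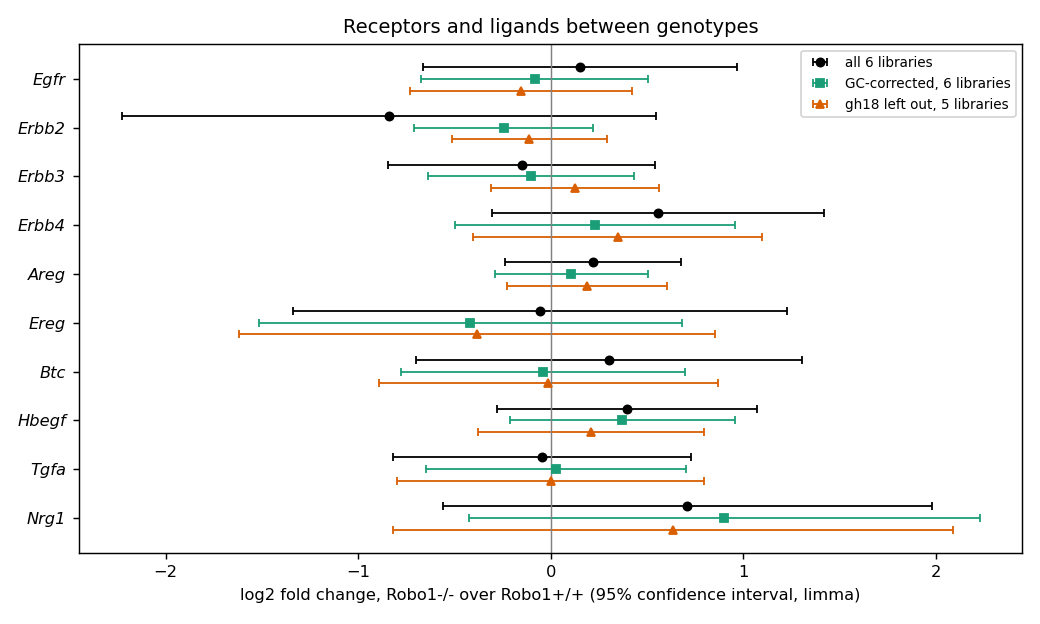
Log2 fold change of each receptor and ligand, *Robo1-/-* over *Robo1+/+*, with its 95% confidence interval from limma, for all 6 libraries, after GC correction and without gh18. Every interval spans 0, and that of *Erbb2* shortens from -2.23 to 0.55 with all libraries to -0.51 to 0.29 without gh18.

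Genes that carry or restrain the ErbB signal were counted whole in 5 lists of 51 genes, of which 50 were tested. By the sign of the log2 fold change, 33 were higher and 17 lower in *Robo1-/-*, 0 passed an adjusted p of 0.05, 1 passed an unadjusted p of 0.05 (1.69% of all tested genes did) and 5 had genotypes that did not overlap (9.41% of all). Both counts were near these shares of all genes. The median log2 fold change was 0.13, against 0.00 over all genes. After GC correction 36 were higher and 14 lower, 5 passed an unadjusted p of 0.05 (1.57% of all genes) and 8 did not overlap (6.57% of all). Of 4 further ligands tested, 3 were higher and 1 lower. Of 15 adaptors and downstream kinases, 9 were higher and 6 lower. Of 5 genes of ligand shedding, which free the precursors from the membrane, 3 were higher and 2 lower. Of 9 response genes, 5 were higher and 4 lower. In the 4 lists other than the inhibitors, *Hras* alone did not overlap. This small GTPase, which links receptors to the kinase cascade, was at 578, 632 and 583 in *Robo1+/+* and 524, 491 and 196 in *Robo1-/-*, with gh18 far lowest. Its log2 fold change was -0.69 (SE 0.40), and -0.24 without gh18. After GC correction *Nrg2*, a neuregulin, and *Egr1*, an immediate early response gene, were also without overlap. *Nrg2* had 7.63, 18.03 and 20.64 in *Robo1+/+* and 34.53, 33.89 and 2.92 in *Robo1-/-*, the last on 2 reads of gh18. For *Nrg2* the log2 fold change was 0.15 (SE 0.93), and 1.32 after correction. *Egr1* had 12070, 11091 and 8519 in *Robo1+/+* and 18540, 14151 and 8974 in *Robo1-/-*, with gh18 inside the *Robo1+/+* range. For *Egr1* the log2 fold change was 0.35 (SE 0.31), and 0.57 after correction.

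The inhibitors of the pathway were higher in 13 of 17 and lower in 4, with a median log2 fold change of 0.21. In 4 of the 17 the genotypes did not overlap, all higher in *Robo1-/-*, where 4.83% of all tested genes were higher without overlap. All 5 lists were chosen with earlier results of these data known, so shares of all genes are no independent background for them. After GC correction 14 were higher and 3 lower, 5 did not overlap, all higher (3.43% of all genes), and the median was 0.15. The fifth was *Lrig1*, a membrane protein that lowers ErbB receptor levels, with 1511, 1951 and 1701 in *Robo1+/+* and 1936, 2244 and 1100 in *Robo1-/-*, where gh18 was lowest. For *Lrig1* the log2 fold change turned from -0.02 to 0.35 with the correction. Without gh18 it was 0.28 (-0.11 to 0.68). *Errfi1*, whose product binds and blocks the kinase of EGFR and ErbB2, had 11974, 14679 and 15582 in *Robo1+/+* and 16365, 22235 and 25251 in *Robo1-/-*. Every *Robo1-/-* library exceeded every *Robo1+/+* library. Its log2 fold change was 0.58 (SE 0.24, limma adjusted p = 0.86), 0.44 after GC correction and 0.45 (-0.07 to 0.96) without gh18. *Dusp4*, a phosphatase of MAP kinases, had 1340, 1377 and 1696 in *Robo1+/+* and 1932, 2104 and 1738 in *Robo1-/-*, separated by the narrow gap between gh15 and gh18. Its log2 fold change was 0.39 (SE 0.20), 0.85 after GC correction and 0.46 (0.08 to 0.84) without gh18. *Spry4*, a Sprouty inhibitor of receptor kinase signaling, had 216, 257 and 232 in *Robo1+/+* and 299, 299 and 274 in *Robo1-/-*. *Spred1*, a related inhibitor, had 823, 768 and 814 in *Robo1+/+* and 846, 930 and 1696 in *Robo1-/-*, where gh18 was far above the rest. Their log2 fold changes were 0.31 (SE 0.23) and 0.46 (SE 0.30), and 0.35 and 0.15 without gh18. Summed over the 17 inhibitors, the normalized count was 29270 to 35207 in *Robo1+/+* and 38125 to 45936 in *Robo1-/-*, without overlap. *Errfi1* was the largest part of this sum, and without it, a choice made after seeing the values, the range was 17297 to 19626 in *Robo1+/+* and 20685 to 21760 in *Robo1-/-*. No list was tested as a set, and none of these differences passed correction over all genes.

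**Figure D5:**
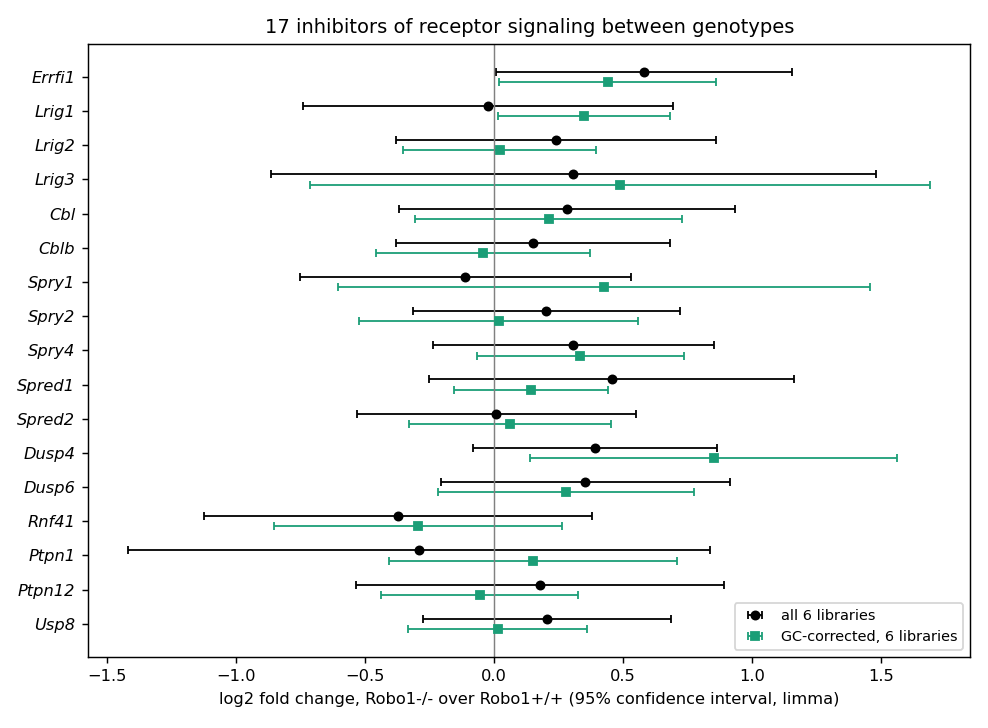
Log2 fold change of the 17 pathway inhibitors, *Robo1-/-* over *Robo1+/+*, with 95% confidence intervals from limma, for all 6 libraries and after GC correction. Points lie above 0 for 13 of 17 genes with all libraries and for 14 after correction, and the interval excludes 0 for *Errfi1* in both and for *Lrig1* and *Dusp4* after correction. Without gh18, which is not drawn, the intervals of *Errfi1* and *Lrig1* span 0 and that of *Dusp4* does not.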

How the data were processed

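Poly(A)+ RNA-seq of luminal progenitors was available for 3 *Robo1+/+* and 3 *Robo1-/-* libraries, with genotypes taken from the sample labels. The authors deposited a normalized signal per known-gene cluster, namely read counts divided by a size factor per library. Per the labels, repeat reads were removed with Bowtie, reads were mapped to NCBI37/mm9 with TopHat, and counts were normalized with DESeq. The paper's methods name bowtie2 for the repeats and DESeq2 for the normalized counts. The counting tool and its use of strand are not given in the sources used here, so overlapping genes are uncertain.

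Whole reads were recovered from the value of 1 read per library (100% of values whole within 0.01). Log2(value + 1) was tested with limma (version 3.58.1, R 4.3.3, with an empirical Bayes trend) and adjusted by Benjamini-Hochberg over 13692 genes, those that passed edgeR's filterByExpr (version 4.0.16) on these reads. Single values were compared by exact 2-sided permutation tests written in Python (version 3.11.15), and rank correlations were computed with SciPy (version 1.17.1). P-values measure the spread between libraries. The GC correction removed a lowess curve (span 0.3) of log2 deviation on transcript GC content for 12538 tested genes (91.6%). Lengths, GC content and positions came from GENCODE M1 on NCBI37, and promoter windows from RefSeq on GRCm38.p6. Alternatives were DESeq2 (version 1.42.0), edgeR and limma-voom on recovered reads, other scalings, filters and pseudocounts (0.5 and 5), and leaving out each library. Pathway and marker lists came from general knowledge. Beyond the 10 genes, values are given for members of the pathway lists at an unadjusted p under 0.05 or without overlap. *Nrg3* had no matching symbol, and *Hras* was found as Hras1. The members and lists were chosen with earlier results of these data known. Scripts were tested on simulated data.

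Summed marker values in *Robo1+/+* and *Robo1-/-* were 28737 to 48471 and 43347 to 64924 for luminal progenitor, 97667 to 109074 and 38423 to 118501 for all luminal, 704 to 832 and 307 to 1039 for fibroblast, 42.2 to 75.2 and 27.7 to 90.7 for endothelial and 87.8 to 138 and 70.0 to 113 for leukocyte genes. For all luminal genes the low sum of 38423 was gh18 alone, and the other *Robo1-/-* libraries lay at 114578 and 118501.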

Additional observations from a re-analysis of the deposited data

How the results depend on the processing

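Of 160 log2 fold changes of the 10 genes recomputed under 16 alternatives, 146 kept their direction, 14 reversed and 0 passed an adjusted p of 0.05, the smallest unadjusted p being 0.0772. Alternatives that changed only the filter of genes left each log2 fold change at its main value, so they could not reverse it. *Areg*, *Erbb2*, *Erbb4*, *Hbegf* and *Nrg1* never reversed. GC correction gave -0.084 for *Egfr*, -0.040 for *Btc* and 0.028 for *Tgfa*, and with gh18 also left out -0.19 for *Egfr*, 0.12 for *Erbb3* and -0.067 for *Btc*. Leaving out each library in turn gave -0.16 to 0.48 for *Egfr*, -0.30 to 0.13 for *Erbb3*, -0.45 to 0.35 for *Ereg*, -0.014 to 0.67 for *Btc* and -0.30 to 0.19 for *Tgfa*. Genes at an adjusted p of 0.05 numbered 0, or 1 with DESeq2. Genes at an unadjusted p of 0.05 numbered 231, or 415 among all genes with at least 1 read, 567 with GC correction and gh18 left out, and 117 (without gh15) to 903 (without gh06) with 1 library left out. The other single omissions gave 588 without gh18, 174 without gh09 and 133 without gh03 or gh12. Shares without overlap numbered 2, or 0 after GC correction. They numbered 1 from reads not divided by length and 1 with coding length (added after seeing the data), *Erbb2* in both. With 1 library left out they numbered 2 to 3, and an omission cannot lower this number. Of 90 share differences, *Robo1-/-* minus *Robo1+/+* in percentage points, 9 reversed. *Btc* gave -0.24 after GC correction, and leaving out each library gave -0.52 to 5.36 for *Egfr*, -2.33 to 0.60 for *Areg*, -0.069 to 0.0037 for *Ereg*, -0.25 to 0.38 for *Btc* and -0.14 to 2.18 for *Hbegf*. The cause of the reversals was not tested.

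No paired analysis was possible because the libraries of the 2 genotypes share no replicate number and the labels tie no library of one to a library of the other. With 3 libraries per genotype an exact test cannot go below 0.10, and the intervals for *Erbb2*, *Erbb4*, *Ereg*, *Btc*, *Hbegf* and *Nrg1* with all libraries leave room for changes of more than 1 on the log2 scale.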
